A study of Mus musculus with 9 samples.

Results

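The genes of sterol and fatty acid synthesis were followed in 4T1 cells, a mouse mammary carcinoma line from the BALB/c strain, with and without knockdown of Yap. The set holds 37 of the 16962 genes in the deposited tables, found by their symbols: 18 enzymes from acetyl-CoA to cholesterol, 11 enzymes of fatty acid synthesis, desaturation, elongation and activation, 5 regulators of the SREBP transcription factors and 3 genes of sterol transport. Poly(A) RNA was sequenced from 9 libraries in 3 groups of 3. The shCTRL libraries carry a negative control treatment on a wild-type genotype, and the shYap-1 and shYap-2 libraries carry a knockdown of Yap, each with its own hairpin. All 3 groups are the same cell line in culture, with no host tissue. Whether the knockdown cells were single clones or pools was not given in the sources used here. The labels do not say whether replicates were separate cultures, so p-values measure only the spread between these libraries, which may be technical.

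Cells make cholesterol from acetyl-CoA through mevalonate, isoprenoid phosphates, squalene and lanosterol. They build the fatty acid palmitate from acetyl-CoA and malonyl-CoA, and desaturases and elongases then remodel it. The SREBP factors, made from Srebf1 and Srebf2, drive genes of both branches: SCAP carries them from the endoplasmic reticulum to the Golgi when sterols are low, and the INSIG proteins hold SCAP back when sterols are high. SREBPs bind sterol regulatory elements, usually beside sites for NF-Y, a factor that recognises the CCAAT box. YAP is a transcriptional co-activator restrained by Hippo signalling that acts on DNA through the TEAD factors.

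Values are FPKM, fragments per kilobase of transcript scaled to the total of mapped fragments, as deposited. Yap1 itself stood at 49.3, 48.3 and 48.8 FPKM in the shCTRL libraries, 8.03, 9.05 and 9.23 under shYap-1, and 11.0, 10.4 and 9.79 under shYap-2, so every knockdown library was below every control. The spacing of low FPKM values put the depth at roughly 19.6 to 28.3 M fragments a library, an estimate since no depth is given in the tables. The library labelled shYap-1 replicate 2 was the shallowest and stood apart from its group in mitochondrial share. Of its summed FPKM 2.01% was mitochondrial, against 4.23% and 3.97% in the other shYap-1 libraries. Its deviations from the group means rose with the GC content of genes (Spearman's rho 0.706 over genes). Those of the other shYap-1 libraries fell (-0.641 and -0.555). Deviations from a group mean cancel out for each gene, so opposite signs within a group are partly built in. Controls also differed, with rho -0.38 for shCTRL replicate 1 and 0.386 for shCTRL replicate 3. All 5 epithelial markers examined reached 1 FPKM, with a summed level of 1892 to 1996 FPKM in shCTRL, 2197 to 2474 under shYap-1 and 2304 to 2325 under shYap-2. The markers did not move together. By the test given below, the log2 fold changes under shYap-1 and shYap-2 were higher for Krt8 (0.67 and 0.63) and Krt19 (1.42 and 1.16). They were lower for Krt18 (-0.19 and -0.09), and Epcam and Cdh1 were not called. The part of these differences in the changes below was not tested. No marker of leukocytes, of fibroblasts and endothelium or of adipocytes reached 1 FPKM in any group, and their lists summed to at most 0.43, 0.57 and 0.31 FPKM in a library; Cd3e, Adipoq, Plin1 and Cidec were listed at 0 in all shCTRL libraries, Pdgfrb in all knockdown libraries and Adgre1 in all shYap-2 libraries. In bulk RNA, fewer cells that express a gene and less RNA per cell cannot be told apart.

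The promoters of the set were read first, over the 250 bases before the transcription start in RefSeq on GRCm38.p6, which was available for 29 of the 37 genes. The pentamer CCAAT of the NF-Y box, on either strand, lay in 22 of these 29 (75.9%), against 37.5% of all 27025 genes with a window and 41.4% of the 8489 such genes that were tested for expression. It was in 14 of 15 sterol enzymes and 4 of 8 fatty acid enzymes. The sterol regulatory element TCACNCCAC was found in 1 of the 29, Hmgcs1, against 1.22% of all genes. The E-box CACGTG was in 7 of the 29 (24.1%), against 6.86% of all genes and 10.2% of those tested. The TEAD box CATTCC was in 1, Acss2, against 14.4% of all genes and 12.5% of those tested. A match is a string in a window, not a bound site, and a missing match says only that these letters are not there. Genes with several RefSeq starts were counted once if any window matched. Counted from -1 for the base just before the start, the Hmgcs1 element spans -137 to -129, with NF-Y boxes further out at -237 and -176 and nearer at -45. Mvd has NF-Y boxes at -60 and -27, Ebp at -170 and -55, and Acsl3 at -15. Fasn has one at -90 and an overlapping pair, 1 on each strand, at -62 and -59. These 5 windows are printed because they cover the contrasts that follow, an early step that moved little (Hmgcs1), a late mevalonate step that fell (Mvd), the sterol enzyme that rose (Ebp), the fatty acid synthase (Fasn) and the acyl-CoA synthetase that fell (Acsl3). Capitals mark the sterol regulatory element and the NF-Y boxes.
Hmgcs1, chr13:119690101-119690350, plus strand: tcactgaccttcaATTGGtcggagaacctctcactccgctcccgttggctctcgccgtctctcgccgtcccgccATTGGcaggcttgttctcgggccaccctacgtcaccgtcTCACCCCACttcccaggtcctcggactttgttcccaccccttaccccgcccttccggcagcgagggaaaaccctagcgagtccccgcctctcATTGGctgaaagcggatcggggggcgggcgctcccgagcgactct
Mvd, chr8:122443423-122443672, minus strand: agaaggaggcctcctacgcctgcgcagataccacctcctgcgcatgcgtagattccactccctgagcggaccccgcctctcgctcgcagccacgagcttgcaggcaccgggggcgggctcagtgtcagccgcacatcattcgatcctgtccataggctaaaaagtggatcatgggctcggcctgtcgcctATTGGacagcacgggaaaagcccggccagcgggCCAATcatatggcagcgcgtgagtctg
Ebp, chrX:8193513-8193762, minus strand: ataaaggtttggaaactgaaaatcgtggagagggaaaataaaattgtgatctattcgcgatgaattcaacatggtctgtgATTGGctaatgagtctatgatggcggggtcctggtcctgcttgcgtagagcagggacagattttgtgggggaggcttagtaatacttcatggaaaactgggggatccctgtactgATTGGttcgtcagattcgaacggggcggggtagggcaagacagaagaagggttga
Fasn, chr11:120824548-120824797, minus strand: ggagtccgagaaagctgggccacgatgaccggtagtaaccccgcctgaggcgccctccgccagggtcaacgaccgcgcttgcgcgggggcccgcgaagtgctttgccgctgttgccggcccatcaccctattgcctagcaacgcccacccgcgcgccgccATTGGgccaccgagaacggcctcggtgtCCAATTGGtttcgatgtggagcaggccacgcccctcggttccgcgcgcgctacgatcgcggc
Acsl3, chr1:78657575-78657824, plus strand: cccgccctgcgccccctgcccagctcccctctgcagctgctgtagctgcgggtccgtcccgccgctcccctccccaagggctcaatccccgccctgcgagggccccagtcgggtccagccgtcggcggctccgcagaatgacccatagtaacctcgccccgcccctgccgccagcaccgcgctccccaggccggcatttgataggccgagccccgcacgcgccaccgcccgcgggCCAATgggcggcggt

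**Figure D1:**
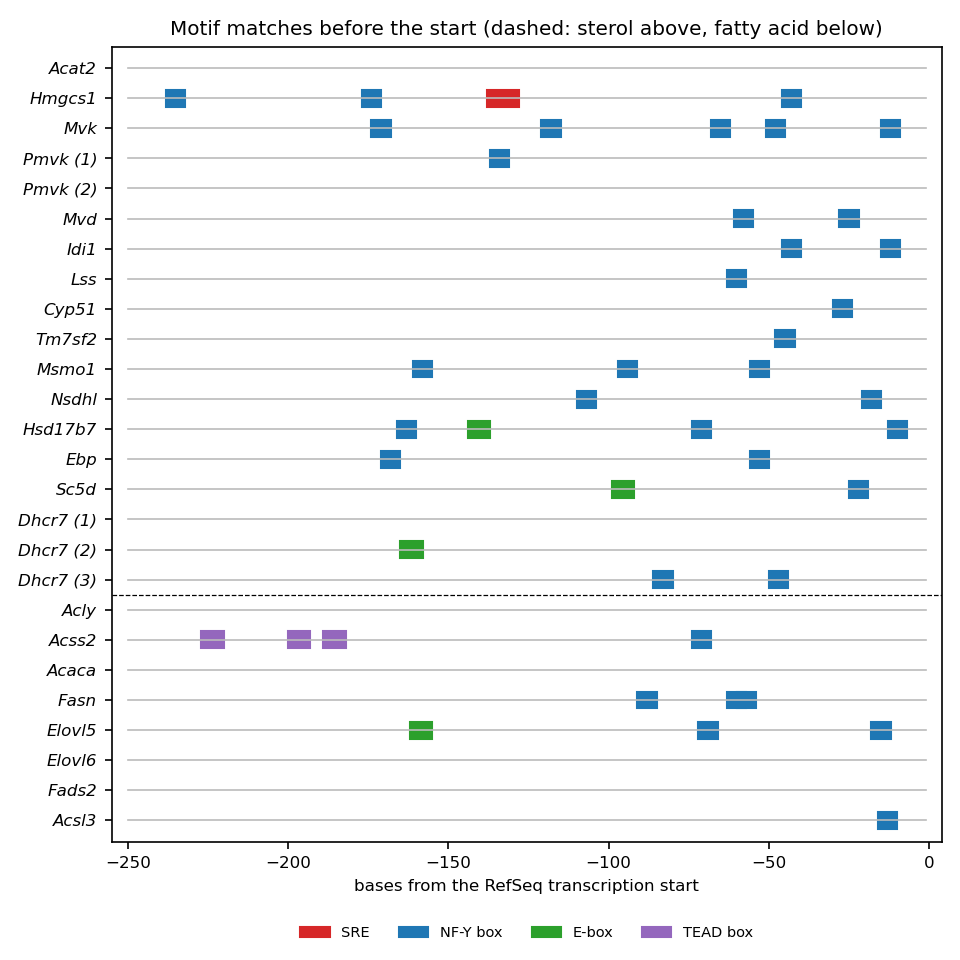
Matches to the sterol regulatory element (SRE), NF-Y box, E-box and TEAD box, on either strand, in the 250 bases before each RefSeq transcription start of the sterol enzymes (above the dashed line) and fatty acid enzymes (below it). The horizontal axis is the distance in bases from the start, a number in brackets tells apart several starts of a gene, and enzymes with no window are not drawn. NF-Y boxes appear in all sterol enzymes drawn but Acat2, and in 4 of the 8 fatty acid enzymes.

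Most enzymes of both branches were lower under either hairpin, and the line between genes that fell and genes that did not ran inside each branch. With shYap-1, 14 of the 18 sterol enzymes fell and 1 rose, and 8 of the 11 fatty acid enzymes fell and none rose. With shYap-2 the sterol counts were 13 lower and 2 higher, and the fatty acid counts were 8 lower and 1 higher. The median log2 fold change was -0.66 for the sterol branch and -0.83 for the fatty acid branch under shYap-1, and -0.36 and -0.60 under shYap-2, where the median of all genes tested was 0.07 and 0.08. These calls come from limma on log2(FPKM + 1) with an adjusted p under 0.05 over all genes tested, and fold changes on that scale understate those of low genes. The background is wide: under shYap-1, 65.2% of 10647 genes tested were called, 37.6% higher and 27.6% lower, and under shYap-2, 73.7% of 10615, 43.2% higher and 30.5% lower. FPKM was used without further scaling, and 57.6% and 58.6% of called genes were then higher; after median-of-ratios scaling these shares were 48.4% and 48.5%, and the median of all genes was -0.03 and -0.02. Against the 27.6% and 30.5% called lower, the sterol branch had 77.8% and 72.2% lower, and the fatty acid branch 72.7% with each hairpin. Over all 35 members tested, 24 were lower and 3 higher under shYap-1, and 23 lower and 7 higher under shYap-2; the other 2 members, Abca1 and Abcg1, were too low to test. The hairpins share their 3 controls, so their results against shCTRL are not independent. With 3 libraries against 3 an exact permutation test cannot go below 0.1, so smaller p-values rest on the model across genes. Without shYap-1 replicate 2 the shYap-1 counts were 16 lower and 2 higher among sterol enzymes, and 9 lower and 0 higher among fatty acid enzymes.

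**Figure D2:**
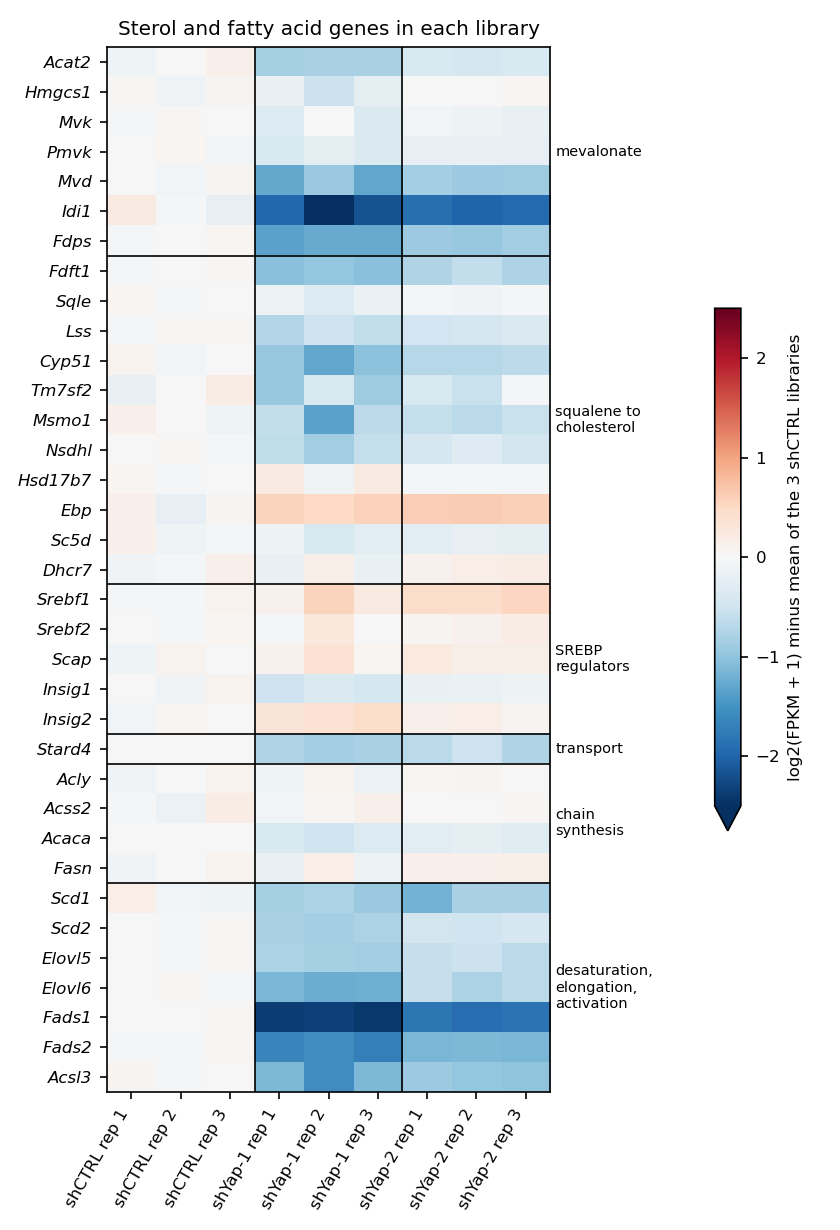
Each of the 35 tested genes (one per line, grouped by role) in each of the 9 libraries, as log2(FPKM + 1) minus the mean of the 3 shCTRL libraries; blue is lower and red is higher, and values beyond the scale take its end colour. Idi1, Fads1 and Fads2 are the darkest lines, while Acly, Acss2 and Fasn stay near the control level.

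Summed over its 18 enzymes, the sterol branch stood at 904.9 to 931.3 FPKM in the shCTRL libraries, 505.3 to 537.8 under shYap-1 and 625.8 to 640.7 under shYap-2. The 11 fatty acid enzymes summed to 1000 to 1049 FPKM in shCTRL, 654.2 to 706.4 under shYap-1 and 790.9 to 799.9 under shYap-2. In both branches the 3 groups did not overlap and shYap-2 lay between the other two. Per library, the median log2 difference of the fatty acid enzymes from the shCTRL mean was -0.87 to -0.82 under shYap-1 and -0.68 to -0.54 under shYap-2, and that of the sterol enzymes was -0.63 to -0.52 and -0.39 to -0.30. The sums are led by a few abundant genes, Scd2, Fasn and Acly in one branch and Fdps in the other, so they are given as a description.

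Of the 7 enzymes that turn acetyl-CoA into farnesyl diphosphate, 6 fell with each hairpin, and the last 3 steps fell furthest. Idi1 (chr13:8885501-8892451, plus strand, GRCm38), the isomerase that makes the reactive isoprenoid unit dimethylallyl diphosphate, was at 86.0, 71.7 and 63.3 FPKM in shCTRL, 18.0, 5.23 and 15.4 under shYap-1 and 18.9, 17.5 and 18.2 under shYap-2. All 6 knockdown libraries were far below the controls, and shYap-1 replicate 2 was the lowest. The log2 fold change was -2.57 ± 0.39 (SE; limma adjusted p = 0.000781) under shYap-1, -2.07 without that library, and -1.95 ± 0.09 (adjusted p = 1.62e-07) under shYap-2. The means with the hairpins were 17.4% and 24.7% of the control mean.

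Fdps (chr3:89093588-89101959, minus strand), which joins the units into farnesyl diphosphate for sterols and prenylated proteins, was the most abundant sterol enzyme. It was at 252.5, 262.6 and 268.9 FPKM in shCTRL, 103.3, 108.1 and 108.2 under shYap-1 and 138.7, 135.3 and 143.2 under shYap-2. The 3 groups did not overlap, and the log2 fold changes were -1.29 ± 0.05 (limma adjusted p = 2.01e-06) and -0.91 ± 0.04 (adjusted p = 4.92e-08). Fdps shares 1124 exonic bases on the same strand with the predicted gene Gm43738, so how the authors' quantification divided reads between them is not known. Mvd, the decarboxylase just before Idi1, went from 36.3, 34.5 and 37.7 FPKM to 14.4, 18.7 and 14.2 under shYap-1 and 19.7, 18.9 and 19.0 under shYap-2. No knockdown library reached the controls, and the log2 fold changes were -1.16 ± 0.11 (limma adjusted p = 7.18e-05) and -0.88 ± 0.05 (adjusted p = 2.6e-07).

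The first steps moved less. Acat2, the cytosolic thiolase that condenses acetyl-CoA, was at 64.8, 69.3 and 76.4 FPKM in shCTRL, 38.9, 39.5 and 39.3 under shYap-1 and 53.8, 52.1 and 53.3 under shYap-2. Its groups were separate, at log2 fold changes of -0.82 and -0.39 (limma adjusted p = 4.74e-05 and 0.00017). Hmgcs1, the synthase that makes HMG-CoA and a classical SREBP target, was at 55.6, 51.0 and 56.8 FPKM in shCTRL, 47.7, 37.4 and 46.2 under shYap-1 and 54.9, 54.5 and 56.1 under shYap-2. The shYap-2 libraries lay among the controls (0.02 ± 0.05, limma adjusted p = 0.711) and those of shYap-1 below them (-0.32 ± 0.10, adjusted p = 0.0256). The shYap-1 call was lost without shCTRL replicate 1 (-0.30) or replicate 3 (-0.28), and with the GC trend removed Hmgcs1 was called higher under shYap-2 (0.14, adjusted p = 0.0227). As a description, the Hmgcs1 to Fdps ratio of FPKM was 0.209 ± 0.0133 (SD, n = 3) in shCTRL and 0.412 ± 0.0596 and 0.397 ± 0.00562 with the hairpins, with no overlap of either with the controls.

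The kinases Mvk and Pmvk, which phosphorylate mevalonate in turn, changed little. Pmvk fell with both hairpins (-0.32 and -0.20, limma adjusted p = 0.00503 and 0.00315). Mvk fell under shYap-2 (-0.13, adjusted p = 0.0194) and was not called under shYap-1 (-0.23, adjusted p = 0.0915), where replicate 2 stood at 35.6 FPKM, among the controls at 34.5 to 35.9, and the other libraries at 27.7 and 27.1. It was called at -0.35 without shYap-1 replicate 2, at -0.34 under scaling and at -0.41 with the GC trend removed. Its shYap-2 call was lost without shCTRL replicate 2 (-0.12), shYap-2 replicate 2 (-0.13) or shYap-2 replicate 3 (-0.10).

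Between squalene and cholesterol, 8 of 11 enzymes fell and 1 rose under shYap-1, and 7 fell and 2 rose under shYap-2. Fdft1, the squalene synthase that commits farnesyl diphosphate to sterols, was at 39.3, 39.5 and 41.0 FPKM in shCTRL, 18.9, 20.1 and 18.8 under shYap-1 and 23.3, 25.6 and 22.9 under shYap-2. The groups did not overlap (log2 fold changes -1.01 ± 0.06 and -0.72 ± 0.05, limma adjusted p = 8.58e-06 and 1.55e-06). Sqle, the squalene epoxidase that follows and a known point of control, was at 57.8, 54.2 and 56.7 FPKM in shCTRL, 51.1, 44.3 and 49.7 under shYap-1 and 54.8, 52.9 and 55.1 under shYap-2. Only the shYap-1 libraries lay wholly below the controls: -0.22 ± 0.07 (limma adjusted p = 0.0281), against -0.05 ± 0.04 (adjusted p = 0.258) under shYap-2, which median-of-ratios or trimmed-mean scaling turned into a call (-0.15 and -0.16, adjusted p = 0.00502 and 0.00475). The Sqle call was lost when shCTRL replicate 1 (-0.20), 2 (-0.24) or 3 (-0.21) or shYap-1 replicate 3 (-0.24) was left out. Fdft1 and its neighbour Ctsb overlap on opposite strands over 774 exonic bases, and use of strand is not stated; opposite-strand overlaps of 34 to 985 exonic bases also touch Hmgcs1, Idi1, Lss, Cyp51, Srebf1, Scap, Elovl6 and Acss2.

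Cyp51, the lanosterol demethylase, was at 41.8, 37.5 and 39.4 FPKM in shCTRL, 20.1, 15.5 and 18.9 under shYap-1 and 23.6, 23.8 and 24.7 under shYap-2. The 3 groups were separate, at log2 fold changes of -1.09 ± 0.10 and -0.69 ± 0.05 (limma adjusted p = 7.21e-05 and 1.47e-06). Msmo1, a sterol methyl oxidase, was at 67.7 to 79.0 FPKM in shCTRL, 47.3, 28.04 and 45.5 under shYap-1 and 45.1 to 49.2 under shYap-2. Its fall was -0.87 under shYap-1, where replicate 2 was lowest, and -0.61 under shYap-2 (limma adjusted p = 0.00458 and 1.21e-05); without that library the shYap-1 value was -0.64. Lss, which cyclises the epoxide to lanosterol, fell by 0.62 and 0.42 on the log2 scale, and Nsdhl, a sterol dehydrogenase, by 0.71 and 0.40 (limma adjusted p from 4.4e-05 to 0.00027). Tm7sf2, a sterol reductase and the lowest sterol enzyme, was at 5.58 to 7.44 FPKM in shCTRL, 2.88 to 4.67 under shYap-1 and 4.10 to 6.20 under shYap-2. It was called lower with both hairpins (-0.74 and -0.34, limma adjusted p = 0.00535 and 0.0469), though the shYap-2 libraries overlapped the controls. That second call was lost without shCTRL replicate 2 (-0.33) or 3 (-0.25), or shYap-2 replicate 1 (-0.30) or 2 (-0.23), and Tm7sf2 shares 532 exonic bases on the same strand with Vps51.

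Ebp (chrX:8185329-8193512, minus strand), the sterol isomerase known as emopamil binding protein, went the other way. It was at 16.2, 12.6 and 15.4 FPKM in shCTRL, 22.1, 21.2 and 22.3 under shYap-1 and 22.8, 23.2 and 22.8 under shYap-2. Every knockdown library was above every control, and the log2 fold changes were 0.55 ± 0.10 and 0.61 ± 0.08 (limma adjusted p = 0.00172 and 0.000103). Of the other late enzymes, Msmo1 and Nsdhl fell as given above, while Sc5d, Dhcr7 and Hsd17b7 moved less. Sc5d, a sterol desaturase, fell by 0.26 and 0.24 on the log2 scale (limma adjusted p = 0.036 and 0.00456). The shYap-1 call of Sc5d was lost without shCTRL replicate 1 (-0.20) or 3 (-0.28) or shYap-1 replicate 3 (-0.27), and with the GC trend removed both values shrank to -0.09 and -0.11, not called.

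Dhcr7, the reductase that turns 7-dehydrocholesterol into cholesterol, was at 25.2 to 29.4 FPKM in shCTRL, 23.3 to 29.8 under shYap-1 and 28.7 to 30.6 under shYap-2, and the groups overlapped. It was not called under shYap-1 (-0.08, limma adjusted p = 0.565) and was at the edge of the threshold under shYap-2 (0.15, adjusted p = 0.0495). The shYap-2 call of Dhcr7 was lost without shCTRL replicate 1 (0.11) or 2 (0.12) or shYap-2 replicate 1 (0.17), 2 (0.14) or 3 (0.13), and under scaling between libraries (0.05). Hsd17b7, a sterol ketoreductase, was at 7.05 to 7.55 FPKM in shCTRL and was not called with either hairpin (0.11 ± 0.10 and -0.03 ± 0.06, limma adjusted p = 0.371 and 0.654). With shYap-1 it was at 8.52 and 8.68 FPKM in replicates 1 and 3 and 6.72 in replicate 2. Without shYap-1 replicate 2, Hsd17b7 was called higher (0.22) and Dhcr7 lower (-0.19), and with the GC trend removed Hsd17b7 was called higher under shYap-1 (0.27).

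**Figure D3:**
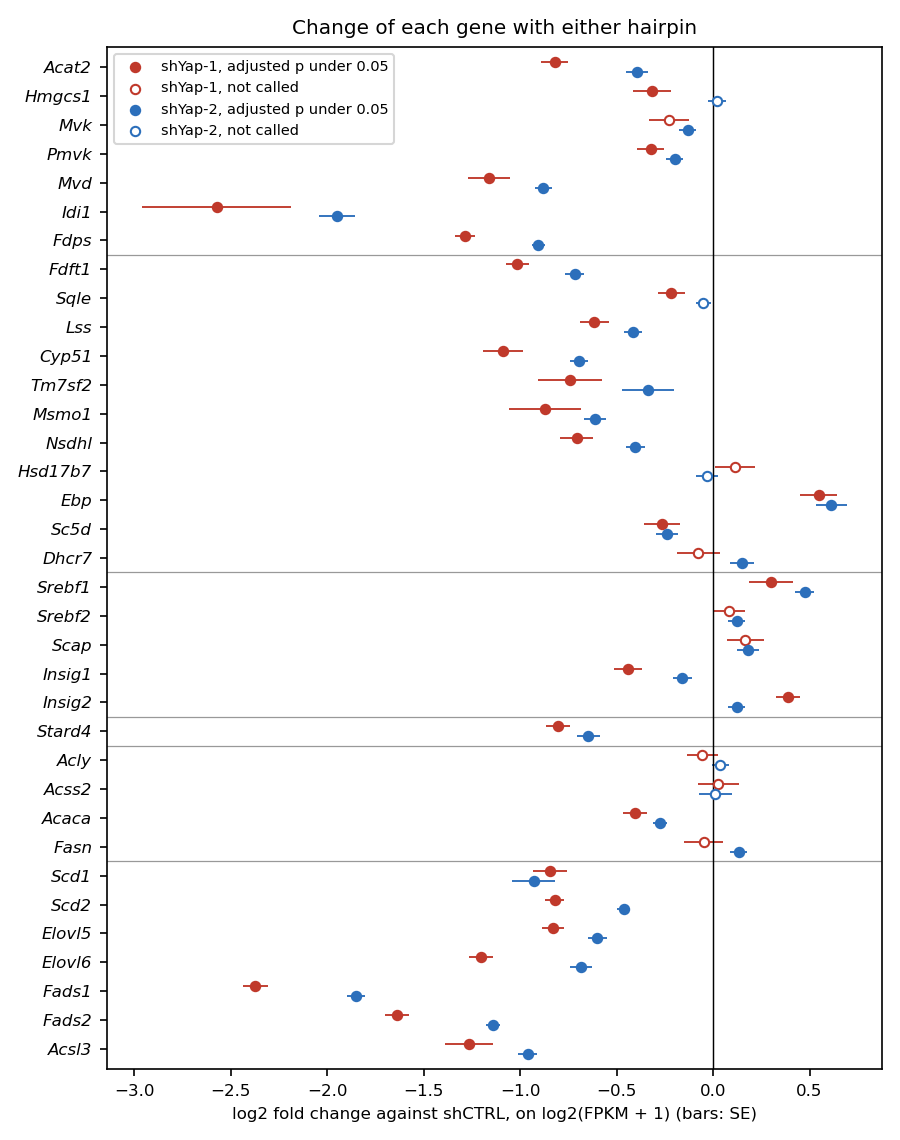
Log2 fold change of each tested gene against shCTRL, on log2(FPKM + 1), under shYap-1 (red) and shYap-2 (blue); bars are the standard error of the limma fit, and filled points have an adjusted p under 0.05. Genes are ordered by role from mevalonate steps at the top to desaturation, elongation and activation at the bottom. The points of Idi1 and Fads1 lie furthest to the left and those of Ebp furthest to the right.

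In the fatty acid branch 1 of the 4 enzymes that build the chain fell under shYap-1, and 1 fell and 1 rose under shYap-2. All 7 enzymes that desaturate, elongate or activate the chain fell with each hairpin. With each hairpin 25% of the first group and 100% of the second were called lower. Over all genes tested the shares were 27.6% and 30.5%, near that of the first group. The median log2 fold change was -0.05 and 0.02 for the first group and -1.20 and -0.93 for the second. Acly, which cleaves citrate to cytosolic acetyl-CoA, was at 141.2, 149.1 and 159.9 FPKM in shCTRL, 138.9, 160.0 and 135.0 under shYap-1 and 155.6, 156.9 and 149.4 under shYap-2. Its groups overlapped (-0.06 ± 0.08 and 0.04 ± 0.05, limma adjusted p = 0.574 and 0.473). Acss2, which makes acetyl-CoA from acetate, was at 7.02 to 9.11 FPKM over all 9 libraries with no call (0.03 ± 0.11 and 0.01 ± 0.09, limma adjusted p = 0.833 and 0.908). Fasn, the synthase that assembles palmitate, was at 164.0, 176.3 and 186.4 FPKM in shCTRL, 154.2, 196.3 and 160.5 under shYap-1 and 190.8, 190.9 and 195.2 under shYap-2. It overlapped the controls under shYap-1 (-0.05 ± 0.10, limma adjusted p = 0.682), where replicate 2 was the highest of the 9 libraries. It was slightly above them under shYap-2 (0.13 ± 0.04, adjusted p = 0.0234). The shYap-2 call was lost without shCTRL replicate 2 (0.14) or shYap-2 replicate 2 (0.14) or 3 (0.12) and under scaling between libraries (0.03), and the sign turned with the GC trend removed (-0.03). The shYap-1 value of Fasn was called lower without shYap-1 replicate 2 (-0.16) and after removal of the GC trend (-0.23, adjusted p = 0.00234). Acaca, the acetyl-CoA carboxylase that supplies malonyl-CoA, did fall: it was at 59.9 to 61.5 FPKM in shCTRL, 42.7 to 47.6 under shYap-1 and 49.1 to 51.6 under shYap-2 (-0.41 and -0.27, limma adjusted p = 0.000774 and 9.19e-05).

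Fads1 (chr19:10182888-10196877, plus strand) and Fads2 (chr19:10062765-10101746, minus strand), the front-end desaturases of polyunsaturated fatty acid synthesis, lie 81.1 kb apart and fell most of the branch. Fads1 was at 33.9, 33.6 and 34.6 FPKM in shCTRL, 5.73, 5.99 and 5.59 under shYap-1 and 9.01, 8.38 and 8.78 under shYap-2. Fads2 was at 88.6, 89.4 and 94.2 FPKM in shCTRL, 28.3, 30.2 and 27.0 under shYap-1 and 40.4, 41.0 and 40.4 under shYap-2. The 3 groups were far apart for both genes and tight within. Fads1 changed by -2.37 ± 0.06 and -1.85 ± 0.05 (limma adjusted p = 7.08e-07 and 5.05e-09), to 17% and 25.6% of the control mean. Fads2 changed by -1.64 ± 0.06 and -1.14 ± 0.04 (limma adjusted p = 1.75e-06 and 1.61e-08), to 31.4% and 44.7%. Since Fads1 fell further, the Fads2 to Fads1 ratio of FPKM went from 2.67 ± 0.0549 (SD, n = 3) in shCTRL to 4.93 ± 0.106 and 4.66 ± 0.206, and the controls did not overlap either hairpin.

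Scd1 (chr19:44394455-44407879, minus strand) and Scd2 (chr19:44293674-44306864, plus strand) are stearoyl-CoA desaturases that place the first double bond in saturated acyl chains, and lie 87.6 kb apart. Scd2 was the most abundant gene of the set, at 377.3, 364.9 and 385.4 FPKM in shCTRL, 212.8, 207.9 and 216.6 under shYap-1 and 273.5, 264.1 and 279.6 under shYap-2. Scd1 was far lower, at 28.1, 24.0 and 23.2 FPKM in shCTRL, 13.7, 13.9 and 12.8 under shYap-1 and 10.5, 13.9 and 13.9 under shYap-2. Both fell with no overlap with the controls. The log2 fold changes were -0.82 ± 0.05 and -0.46 ± 0.03 for Scd2 (limma adjusted p = 1.03e-05 and 1.88e-06) and -0.85 ± 0.09 and -0.93 ± 0.11 for Scd1 (adjusted p = 0.000121 and 5.01e-05). The Scd2 to Scd1 ratio of FPKM was 15.1 ± 1.60 (SD, n = 3) in shCTRL, 15.8 ± 1.07 under shYap-1 and 21.8 ± 3.84 under shYap-2. The desaturases are close paralogs, and how the authors' quantification split reads between them is not known.

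Elovl6, which elongates palmitate to stearate, was at 35.3, 35.8 and 34.1 FPKM in shCTRL, 15.3, 14.2 and 14.5 under shYap-1 and 23.1, 19.9 and 21.6 under shYap-2. The groups were separate (-1.20 ± 0.06 and -0.68 ± 0.06, limma adjusted p = 5.21e-06 and 4.69e-06). Elovl5, which elongates polyunsaturated chains, was at 32.1 to 33.4 FPKM in shCTRL, 17.5 to 18.5 under shYap-1 and 20.1 to 22.2 under shYap-2 (-0.83 and -0.60, limma adjusted p = 1.83e-05 and 3.94e-06). Acsl3, a long-chain acyl-CoA synthetase of the endoplasmic reticulum and lipid droplets, was at 30.0, 27.6 and 28.8 FPKM in shCTRL, 12.8, 9.12 and 12.6 under shYap-1 and 14.8, 14.3 and 13.8 under shYap-2. It fell with no overlap (-1.27 ± 0.12 and -0.96 ± 0.05, limma adjusted p = 9.21e-05 and 2.37e-07). Acsl3 shares 244 exonic bases on the same strand with Utp14b. The Fasn to Fads2 ratio of FPKM was 1.93 ± 0.0713 (SD, n = 3) in shCTRL, 5.97 ± 0.529 under shYap-1 and 4.74 ± 0.0873 under shYap-2.

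**Figure D4:**
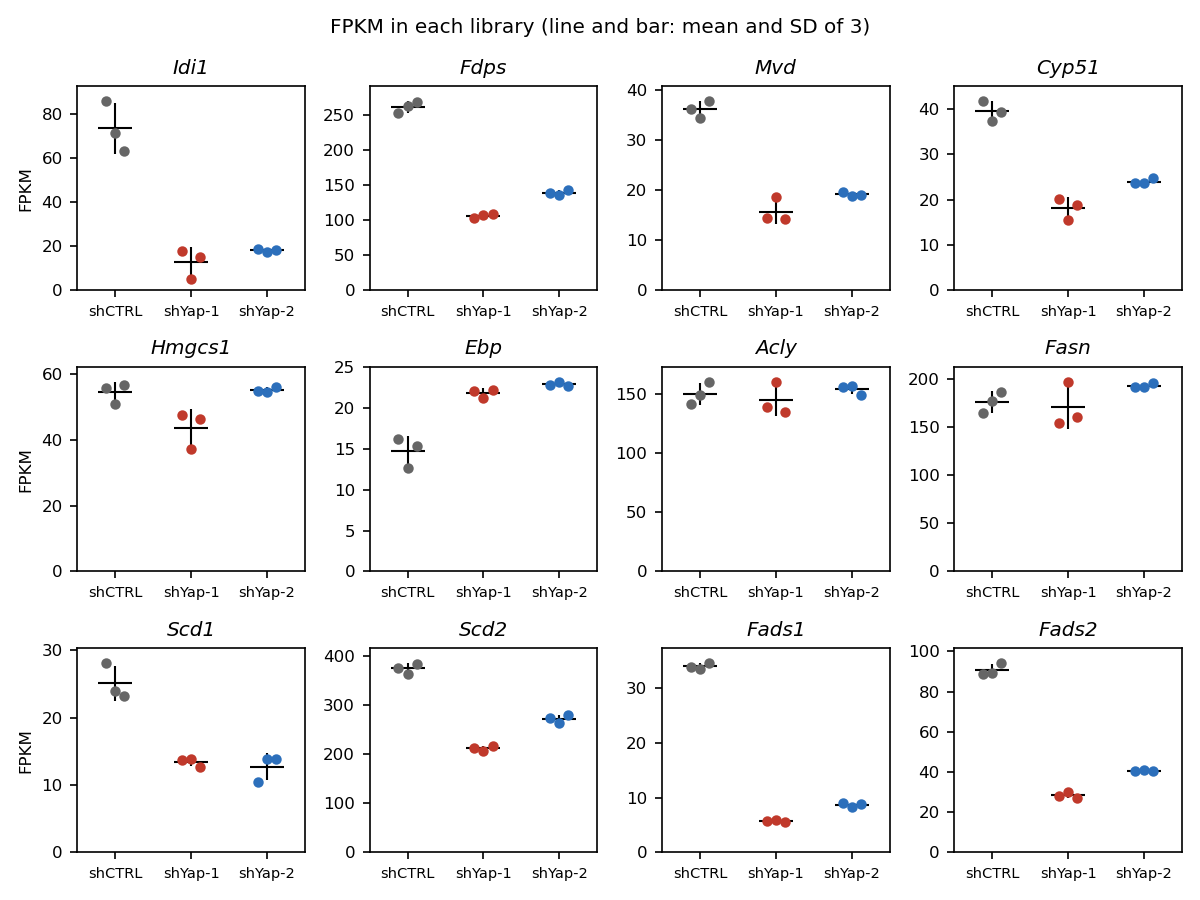
FPKM of 12 sterol and fatty acid enzymes in each of the 9 libraries, one point per library, with the mean (line) and SD (bar) of the 3 libraries of each group; each vertical axis starts at 0 and has its own range. Idi1, Fdps, Mvd, Cyp51, Scd1, Scd2, Fads1 and Fads2 are lower in every knockdown library, Ebp is higher in every one, and Acly overlaps the controls with both hairpins.

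The SREBP regulators were split. With shYap-1, 2 of 5 rose and 1 fell, and under shYap-2, 4 rose and 1 fell. The shYap-1 shares, 40% higher and 20% lower, were near those over all genes tested, 37.6% and 27.6%. Under shYap-2, 43.2% of all genes were higher and 30.5% lower. Srebf1, whose products act mainly on fatty acid genes, was at 29.4, 29.8 and 32.2 FPKM in shCTRL, 33.0, 45.1 and 36.0 under shYap-1 and 42.1, 41.5 and 44.6 under shYap-2. Every knockdown library was above the controls, at 0.30 ± 0.11 (limma adjusted p = 0.0498) and 0.47 ± 0.05 (adjusted p = 1.9e-05). The shYap-1 call was lost without shCTRL replicate 1 (0.27), 2 (0.28) or 3 (0.34) or shYap-1 replicate 3 (0.33), and under scaling between libraries (0.19). Srebf2, whose product acts mainly on sterol genes, was at 68.0 to 73.2 FPKM in shCTRL, 69.1 to 84.2 under shYap-1 and 74.1 to 79.9 under shYap-2. It was not called under shYap-1 (0.08 ± 0.08, limma adjusted p = 0.417) and was called under shYap-2 (0.12 ± 0.04, adjusted p = 0.0253). The Srebf2 call was lost without shCTRL replicate 1 (0.12) or 2 (0.10) or shYap-2 replicate 2 (0.13) or 3 (0.09) and under scaling (0.02), and its sign turned with the GC trend removed (-0.04). Scap stood at 45.1 to 52.2 FPKM in shCTRL, and its values were 0.17 (limma adjusted p = 0.167) and 0.18 (adjusted p = 0.0155), the second lost without shYap-2 replicate 1 (0.15) and under scaling (0.08).

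The INSIG genes moved in opposite directions. Insig1, an SREBP target itself, was at 56.6, 54.1 and 61.3 FPKM in shCTRL, 39.5, 44.3 and 42.2 under shYap-1 and 50.3, 51.0 and 52.2 under shYap-2. Insig2, its relative, was at 33.4, 36.2 and 35.4 FPKM in shCTRL, 44.0, 46.1 and 48.3 under shYap-1 and 38.4, 39.2 and 36.9 under shYap-2. All knockdown libraries were below the controls for Insig1 and above them for Insig2. Insig1 changed by -0.44 and -0.16 (limma adjusted p = 0.00118 and 0.014) and Insig2 by 0.39 and 0.12 (adjusted p = 0.00111 and 0.0315). The shYap-2 call of Insig2 was lost without shCTRL replicate 1 (0.09) or shYap-2 replicate 1 (0.12) or 2 (0.10), and under scaling (0.02).

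Of the transport genes, Stard4, a carrier of cholesterol between membranes and an SREBP target, was at 20.8, 21.1 and 20.7 FPKM in shCTRL, 11.9, 11.2 and 11.4 under shYap-1 and 12.8, 14.2 and 12 under shYap-2. The controls were clear of both hairpins (-0.81 ± 0.06 and -0.65 ± 0.06, limma adjusted p = 2.89e-05 and 1.27e-05). The sterol exporters Abca1 and Abcg1 were hardly detected, at 0 to 0.03 and 0.01 to 0.15 FPKM over the 9 libraries, and no fold is given.

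The effects of the hairpins differed in size for 10 members. Tested directly on all 9 libraries, 9 of 35 members were higher and 1 lower under shYap-2 than under shYap-1, where 3.29% of 10733 genes were called, 1.93% higher and 1.36% lower. The called members were Fads1 (0.52 ± 0.06), Elovl6 (0.52 ± 0.06), Fads2 (0.50 ± 0.05), Acat2 (0.43 ± 0.06), Cyp51 (0.39 ± 0.09), Fdps (0.38 ± 0.04), Scd2 (0.36 ± 0.04), Fdft1 (0.30 ± 0.06) and Insig1 (0.28 ± 0.06) on the higher side and Insig2 (-0.27 ± 0.05) on the lower, with limma adjusted p from 0.00846 to 0.0447. All 3 shYap-2 libraries were above all 3 shYap-1 libraries for 20 of 35 members, 11 of them sterol and 7 fatty acid enzymes, and below for 1, where 12.3% of all genes tested were wholly above and 13.6% wholly below. No difference was called for Scd1 (-0.08 ± 0.11, limma adjusted p = 0.739) or Ebp (0.07 ± 0.08, adjusted p = 0.719). Yap1 itself was 0.22 ± 0.07 higher under shYap-2 (adjusted p = 0.0992), and without shYap-1 replicate 2 it was called (0.24, adjusted p = 0.0341). The number of calls rests on single libraries. Without shYap-2 replicate 1, 2 or 3, none of the members was called, and the number of genes called over the whole table was 3, 1 and 1. In these fits Fads1, Fads2, Elovl6, Fdps and Scd2 missed the threshold narrowly, with limma adjusted p from 0.0502 to 0.0567. The remaining members called with all libraries had adjusted p from 0.0547 to 0.158. Without shCTRL replicate 2 or 3 or shYap-1 replicate 3, 6 members were called. Over all genes, 203, 179 and 184 genes were called without shCTRL replicate 1, 2 and 3, and 196 and 80 without shYap-1 replicate 1 and 3, against 353 with all libraries. Without shYap-1 replicate 2, 23 members were called, 12 sterol and 7 fatty acid enzymes being higher and 1 sterol enzyme, Hsd17b7, lower, out of 1646 genes called. Leaving that library out, 28 members were wholly above and 2 wholly below, beside 24.1% and 27.7% of all genes. When any 1 library was left out, Fads1 lay between 0.50 and 0.55 and Fdps between 0.36 and 0.40, while Fdft1 ran from 0.25 to 0.33 and Cyp51 from 0.29, without shYap-1 replicate 2, to 0.47.

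**Figure D5:**
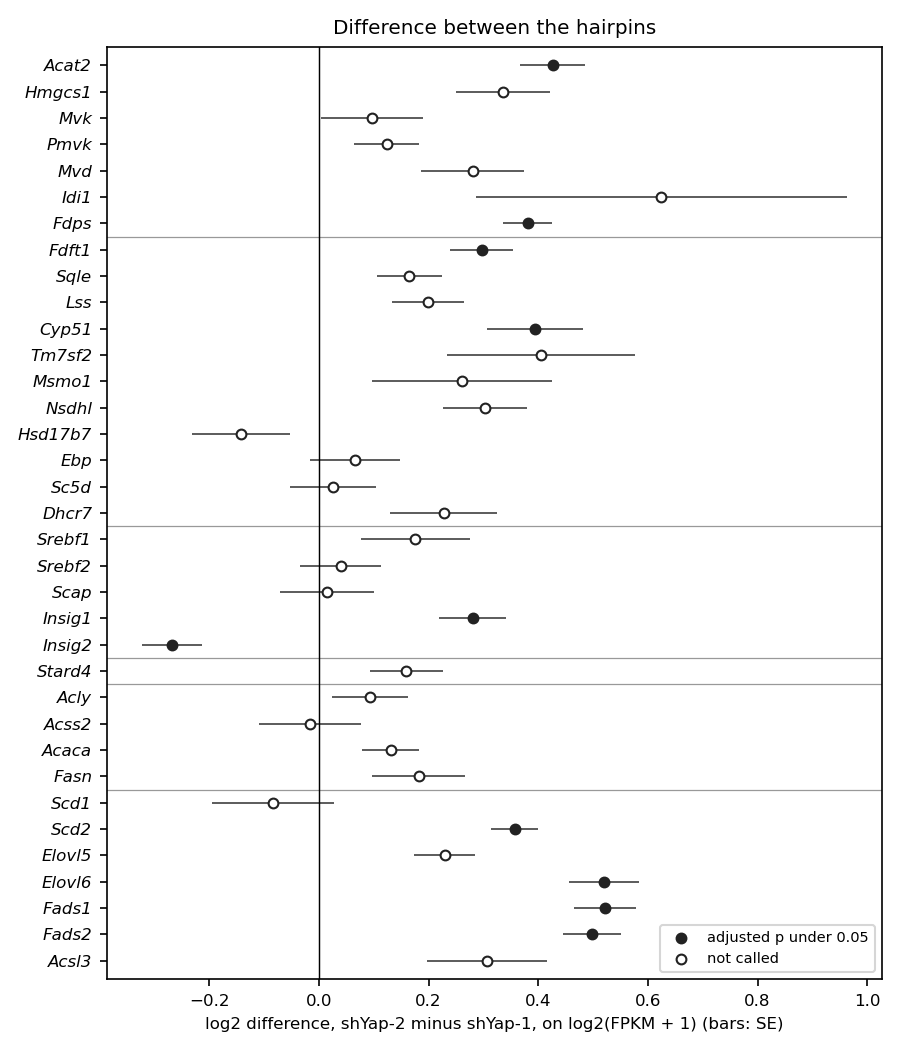
Difference in log2(FPKM + 1) between shYap-2 and shYap-1 for each tested gene, in the order of the roles, with the standard error of the limma fit on all 9 libraries as a bar; filled points have an adjusted p under 0.05. Most points lie to the right of 0, Fads1, Fads2 and Elovl6 near 0.50, and Insig2 is the filled point on the left.

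Lists of related steps held genes that moved either way. In glycerolipid synthesis and storage 7 of 17 genes rose and 1 fell with each hairpin. Plin2, a coat protein of lipid droplets, was at 62.0, 68.9 and 65.9 FPKM in shCTRL, 182.1, 219.8 and 194.7 under shYap-1 and 166.7, 166.2 and 162.8 under shYap-2. It rose with no overlap (1.58 ± 0.08 and 1.32 ± 0.04, limma adjusted p = 5.18e-06 and 1.55e-08), and the phosphatidate phosphatases Lpin3 (0.92 and 0.75) and Lpin2 (0.59 and 0.37) also rose. Their relative Lpin1, named after its values were seen, was the gene that fell (-0.74 and -0.71, limma adjusted p = 0.00115 and 0.000281). In fatty acid oxidation 5 of 11 genes rose and 3 fell under shYap-1, and 6 rose and 3 fell under shYap-2. Cpt1a, which admits fatty acids to mitochondria, was at 3.97, 4.08 and 4.37 FPKM in shCTRL, 11.6, 16 and 11.6 under shYap-1 and 8.24, 9.25 and 8.80 under shYap-2 (1.44 and 0.93, limma adjusted p = 5.83e-05 and 2.05e-06). The thiolase Acaa2 rose by 1.15 and 1.09.

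Genes that esterify or move cholesterol were split, 6 higher and 4 lower of 12 under shYap-1 and 6 higher and 5 lower of 11 under shYap-2. Stard3, a lipid transfer protein of late endosomes, rose by 1.46 and 1.17. The cholesterol esterifying enzyme Soat1 rose by 0.98 and 0.76, and the lysosomal sterol carrier Npc2 by 0.91 and 0.81. Genes that fell, named after their values were seen, included Lipa (-0.66 and -0.69), Nceh1 (-0.33 and -0.33) and Osbp (-0.30 and -0.38). Of LXR factors, which respond to oxysterols, and the genes listed with them, 4 of 6 rose and none fell with each hairpin. Rxra (0.95 and 0.81), Nr1h2 (0.63 and 0.46) and Mylip (0.60 and 0.50) were among those that rose. The other 2, Rxrb (-0.01 and -0.05) and Arl4c (-0.11 and -0.05), named after their values were seen, were not called. The exporters Abca1 and Abcg1, hardly detected in any library, were not in this list. Of other sterol enzymes and electron donors 3 of 6 rose and 2 fell under shYap-1, and 4 rose and 2 fell under shYap-2. Lbr, a nuclear envelope protein with the same sterol reductase activity as Tm7sf2, went from 51.0, 48.5 and 50.9 FPKM to 24.0, 18.9 and 22.95 under shYap-1 and 30.0, 26.2 and 29.1 under shYap-2. It fell with no overlap (-1.16 and -0.80, limma adjusted p = 3.41e-05 and 1.18e-06), while the electron donors Cyb5r3 (1.21 and 1.03) and Cyb5a (0.56 and 0.45) rose. Cyb5b, named after its values were seen, was the other gene that fell (-0.38 and -0.14, limma adjusted p = 0.00115 and 0.00223).

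In the list of SREBP processing and sterol-sensing degradation 3 of 9 rose and 4 fell with each hairpin, Erlin2 (1.02 and 0.87) and Rnf145 (0.49 and 0.51) rising. The 4 that fell are named after their values were seen. They were the proteases that cleave SREBPs, Mbtps2 (-0.81 and -0.67) and Mbtps1 (-0.18 and -0.14), Fbxw7 (-0.64 and -0.74), and Erlin1 (-0.68 and -0.46), the partner of Erlin2. Of other fatty acid synthesis and elongation genes 8 of 18 rose and 3 fell under shYap-1, and 9 of 17 rose and 3 fell under shYap-2. The elongation cycle dehydratases Hacd2 (1.05 and 0.88) and Hacd3 (0.80 and 0.74) and the elongase Elovl1 (0.72 and 0.49) rose. Among acyl-CoA synthetases 2 of 8 rose and 1 fell under shYap-1, and 2 rose and 2 fell under shYap-2: the fatty acid transport proteins Slc27a1 (1.5 and 1.3) and Slc27a4 (1.26 and 0.99) rose and Acsf2 (-0.54 and -0.42) fell. In the prenyl, dolichol and ubiquinone branch, which also draws on mevalonate, 4 of 13 rose and 2 fell under shYap-1, and 7 rose and 2 fell under shYap-2, with Icmt (0.49 and 0.44) and Coq2 (0.45 and 0.44) higher and Pdss2 (-0.37 and -0.28) lower. These counts stand beside a background of 37.6% and 43.2% of all genes called higher and 27.6% and 30.5% called lower.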

How the data were processed

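Poly(A) RNA of 9 libraries was measured by RNA-seq. The authors deposited FPKM per gene in a table for each hairpin, with the same 3 control libraries in both (0 control values differed between tables). Per the submitters' processing notes, fastp 0.18.0, HISAT2 2.1.0, StringTie 1.3.4, RSEM and build mm10 were used; the role of each, the annotation and the use of strand were not given in the sources used here. FPKM is not a count, and depth (19.6 to 28.3 M fragments) was estimated from the spacing of low values.

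Of 16962 gene identifiers, 16951 matched GENCODE vM21, which gave symbols and GRCm38 positions. Genes with at least 1 FPKM in at least 3 libraries were tested on log2(FPKM + 1) with limma 3.58.1 (R 4.3.3), lmFit and eBayes with a trend on abundance and Benjamini-Hochberg adjustment over all genes tested, within each hairpin's table, and on all 9 libraries for the difference between hairpins, which spans both tables. FPKM was not rescaled. The fit was tested on simulated data. Motifs were counted with Python 3.11.15 in RefSeq windows. Alternatives covered the pseudocount, the filter, scaling, the trend, GC content, a replicate block and leaving out each library. Same-numbered libraries correlated at -0.237 to 0.344, not all above 0.1, so the numbers were not taken as pairs.

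Every member is named; of each neighbouring list, the 3 genes whose larger adjusted p over both hairpins was smallest are named, except some that are not reported here. The members and lists were chosen with earlier results of these data known.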

Additional observations from a re-analysis of the deposited data

Results flagged for a closer look

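The change differed between the hairpins for 10 of 35 members, by the limma test of the difference itself on all 9 libraries. The threshold was an adjusted p under 0.05 over all genes tested, which 353 of 10733 genes (3.29%) passed. None of the members was called when shYap-2 replicate 1, 2 or 3 was left out. The difference, shYap-2 minus shYap-1 on log2(FPKM + 1), was 0.52 for Fads1, 0.52 for Elovl6, 0.50 for Fads2, 0.43 for Acat2, 0.39 for Cyp51, 0.38 for Fdps, 0.36 for Scd2, 0.30 for Fdft1, 0.28 for Insig1 and -0.27 for Insig2. For 9 of these 10 the change against shCTRL was a fall that was smaller with shYap-2, and for Insig2 a rise that was smaller with shYap-2. Yap1 was 0.22 higher with shYap-2 than with shYap-1 (adjusted p = 0.0992; 0.24 and 0.0341 without shYap-1 replicate 2); whether the remaining Yap level bears on these differences was not tested.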

How the results depend on the processing

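Leaving out each library kept 639 of the single-gene values on their side of the threshold and in direction; 83 lost and 18 gained a call, and 16 turned sign. Over the other settings the numbers were 858, 45, 16 and 17. Against shCTRL, some changes were called with each hairpin under every setting run. Among sterol enzymes these were the falls of Acat2, Pmvk, Mvd, Idi1, Fdps, Fdft1, Lss, Cyp51, Msmo1 and Nsdhl and the rise of Ebp. The falls of Insig1, Stard4, Acaca and all 7 desaturation, elongation and activation genes were also called under every setting. Depth was only estimated, so no counting interval is given for low genes such as Tm7sf2. Except where named, the cause of a change was not tested.

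With 1 library left out, shYap-1 called 5908 to 7524 genes and 1 to 2 sterol enzymes higher, and shYap-2 called 1 to 2 sterol and 0 to 1 fatty acid enzymes higher. Between hairpins the ranges were 1 to 1646 genes, 0 to 23 members, 0 to 12 sterol enzymes higher, 0 to 1 lower and 0 to 7 fatty acid enzymes higher. With the GC trend removed, 2 sterol enzymes were higher with shYap-1, and the hairpins differed in 1157 genes, 16 members and 7 higher sterol enzymes. With shYap-2, 1 sterol enzyme was higher, not 2, with a pseudocount of 0.1, no filter, either scaling, no trend or all 9 libraries in 1 fit, and 0 fatty acid enzymes were higher with no filter, either scaling, no trend, the GC trend removed or all 9 libraries in 1 fit.

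The replicate block left 6785 genes called with shYap-1 and 7808 with shYap-2, but between hairpins 141 genes rather than 353, 6 members rather than 10 and 2 higher sterol enzymes rather than 4. The replicate numbers were not found to pair libraries.

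Signs turned only for values that were not called, except Srebf2 with shYap-1 under GC removal (-0.10, limma adjusted p = 0.0448) and the shYap-2 values of Srebf2 (-0.038) and Fasn (-0.027) under GC removal, which were called before it. Under median-of-ratios and trimmed-mean scaling, shYap-1 gave -0.031 and -0.034 for Srebf2 and -0.073 and -0.076 for Acss2, and shYap-2 gave -0.083 and -0.085 for Hmgcs1, -0.066 and -0.068 for Acly and -0.081 and -0.083 for Acss2. Under GC removal, Scap was at -0.012 with shYap-1, Hsd17b7 at 0.084 and Acly at -0.023 with shYap-2, and Sc5d at -0.016 between hairpins. With 1 library left out, shYap-1 ranged from -0.044 to 0.12 for Acss2, -0.16 to 0.018 for Fasn and -0.0055 to 0.13 for Srebf2. With shYap-2 the ranges were -0.0045 to 0.085 for Acly, -0.0599 to 0.11 for Acss2 and -0.027 to 0.0501 for Hmgcs1. Between hairpins they were -0.013 to 0.13 for Srebf2, -0.046 to 0.11 for Scap, -0.043 to 0.091 for Sc5d, -0.068 to 0.034 for Acss2 and -0.15 to 0.043 for Scd1.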
